A study of Rattus norvegicus with 8 samples.

Results

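Interferon-stimulated genes were measured in the hearts of aged female rats that had lost their ovaries, with or without estradiol replacement, to ask whether the antiviral gene programme differs with ovarian hormone and with the time at which estradiol is started. The genes came from a list of 44 symbols, and a gene was taken as measured where the array had a probe set annotated to that gene alone. Of the 44 genes, 40 had such a probe set, and 35 of these passed a filter on dim signal, out of 14217 genes on the array with a probe set of their own and 10450 that passed. Oas2, Gbp5 and Xaf1 had no such probe set, and Oas1i appeared only in a probe set shared with Oas1g. Ifit1, Oas1b, Ifih1, Dhx58 and Herc6 lay below the filter. The RNA sensor Rigi was found under the older symbol Rig1. Each gene was represented by its brightest probe set.

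The animals were Norway Brown rats of 18 to 22 months, and the arrays were Affymetrix single-colour expression arrays. In the Ovx + Late estrogen group (late estradiol), ovariectomy was followed 9 weeks later by a pellet under the skin holding 0.5 mg of 17-β estradiol and releasing it over 90 days. In the Ovx + Early estrogen group (early estradiol), the same pellet was placed during the ovariectomy operation. The Ovx group had ovariectomy and no pellet, and the sham group had surgery with no tissue removed. Each group had 2 arrays, and each array held RNA pooled equally from 3 hearts, so a p-value measures the spread between pools and not between single animals. The RNA came from heart tissue and not from sorted cells, so fewer cells of a type and less RNA per cell cannot be told apart.

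Interferons are secreted proteins that cells release when they sense viral or misplaced nucleic acid. Type I interferons act through a JAK kinase cascade that leads to a complex holding STAT2 and IRF9 on a DNA element called the interferon-stimulated response element (ISRE). Type II interferon acts through a DNA element called the gamma-activated site (GAS). The induced genes encode proteins that block viral RNA and its translation, GTPases that attack membranes around pathogens, chemokines that attract T cells, and the regulators of the pathway itself. The roles given here for single genes are known mostly from human and mouse cells.

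RefSeq promoter windows (rat build GRCr8, 250 bases before to 50 bases after the annotated start) were available for 34 of the 44 genes. The ISRE core, spelled GAAA, any 2 bases, then GAAA, and searched on both strands, was present in 22 of the 34 windows (64.7%), and in 1312 of the 33469 windows of all genes (3.92%). The GAS spelling TTCNNNGAA, which reads the same on both strands, was present in 11 of the 34 (32.4%) and in 2970 of all windows (8.87%). Of the 29 ISRE core matches, 27 began within 200 bases before the start. The windows below are shown because their genes carry the differences described later, or, for Oas1a, because 2 cores overlap in tandem. They are written 5′ to 3′ on the gene's strand, and capitals mark the ISRE core on either strand, or in Cxcl11 the GAS spelling.
Gbp4: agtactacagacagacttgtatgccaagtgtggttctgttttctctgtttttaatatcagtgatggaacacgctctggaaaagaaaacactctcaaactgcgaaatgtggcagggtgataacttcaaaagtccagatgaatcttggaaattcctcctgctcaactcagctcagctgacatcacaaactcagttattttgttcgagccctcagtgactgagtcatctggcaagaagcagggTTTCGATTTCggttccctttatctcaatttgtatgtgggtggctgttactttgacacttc
Ifi44: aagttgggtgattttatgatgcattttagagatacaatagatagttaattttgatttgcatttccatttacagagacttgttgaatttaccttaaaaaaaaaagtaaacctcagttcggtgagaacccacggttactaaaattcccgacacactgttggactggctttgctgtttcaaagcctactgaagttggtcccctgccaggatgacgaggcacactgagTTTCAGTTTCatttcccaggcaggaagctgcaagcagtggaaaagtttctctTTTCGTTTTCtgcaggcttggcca
Gbp2: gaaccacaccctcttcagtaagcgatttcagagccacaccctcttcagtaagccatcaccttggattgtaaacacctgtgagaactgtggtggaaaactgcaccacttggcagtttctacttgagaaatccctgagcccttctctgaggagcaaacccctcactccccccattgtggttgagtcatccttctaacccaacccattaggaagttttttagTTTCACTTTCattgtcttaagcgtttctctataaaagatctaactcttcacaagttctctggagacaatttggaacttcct
Isg20: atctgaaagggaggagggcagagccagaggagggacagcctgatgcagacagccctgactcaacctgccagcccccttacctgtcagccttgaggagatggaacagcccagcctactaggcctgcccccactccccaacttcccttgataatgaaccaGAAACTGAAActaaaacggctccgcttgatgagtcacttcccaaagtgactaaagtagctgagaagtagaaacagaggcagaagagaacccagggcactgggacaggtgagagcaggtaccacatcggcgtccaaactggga
Oas1a: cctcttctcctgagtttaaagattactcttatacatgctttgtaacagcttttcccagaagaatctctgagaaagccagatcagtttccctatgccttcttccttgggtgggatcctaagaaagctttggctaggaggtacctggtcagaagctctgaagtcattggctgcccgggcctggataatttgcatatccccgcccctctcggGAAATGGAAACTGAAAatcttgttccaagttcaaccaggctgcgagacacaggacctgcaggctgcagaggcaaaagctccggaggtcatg
Cxcl11: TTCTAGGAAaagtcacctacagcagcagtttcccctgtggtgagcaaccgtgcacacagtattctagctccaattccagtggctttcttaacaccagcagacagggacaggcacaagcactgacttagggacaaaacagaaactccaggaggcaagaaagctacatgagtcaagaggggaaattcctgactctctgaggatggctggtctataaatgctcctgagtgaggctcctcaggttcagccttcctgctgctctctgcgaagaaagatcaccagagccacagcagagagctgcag

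The Gbp4 window lies at chr2:233978236-233978535 on the forward strand, that of Ifi44 at chr2:243303791-243304090 on the reverse strand, and that of Gbp2 at chr2:234005477-234005776 on the forward strand. The Isg20 window lies at chr1:142239809-142240108 on the forward strand, that of Oas1a at chr12:41330216-41330515 on the forward strand, and that of Cxcl11 at chr14:15973478-15973777 on the forward strand. In Gbp4 the core ended at the base before the start, and in Ifi44 1 core lay before the start and 1 after it. In all, 7 genes had more than 1 core (Bst2, Ifi27, Ifi44, Ifi44l, Oas1a, Oas1b and Oas1i). Both spellings were found in 7 genes (Oas1a, Oas1b, Ifi44l, Igtp, Irgm, Bst2 and Parp14), and they overlapped in Bst2. A match is a run of letters and does not show that a factor binds there.

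**Figure D1:**
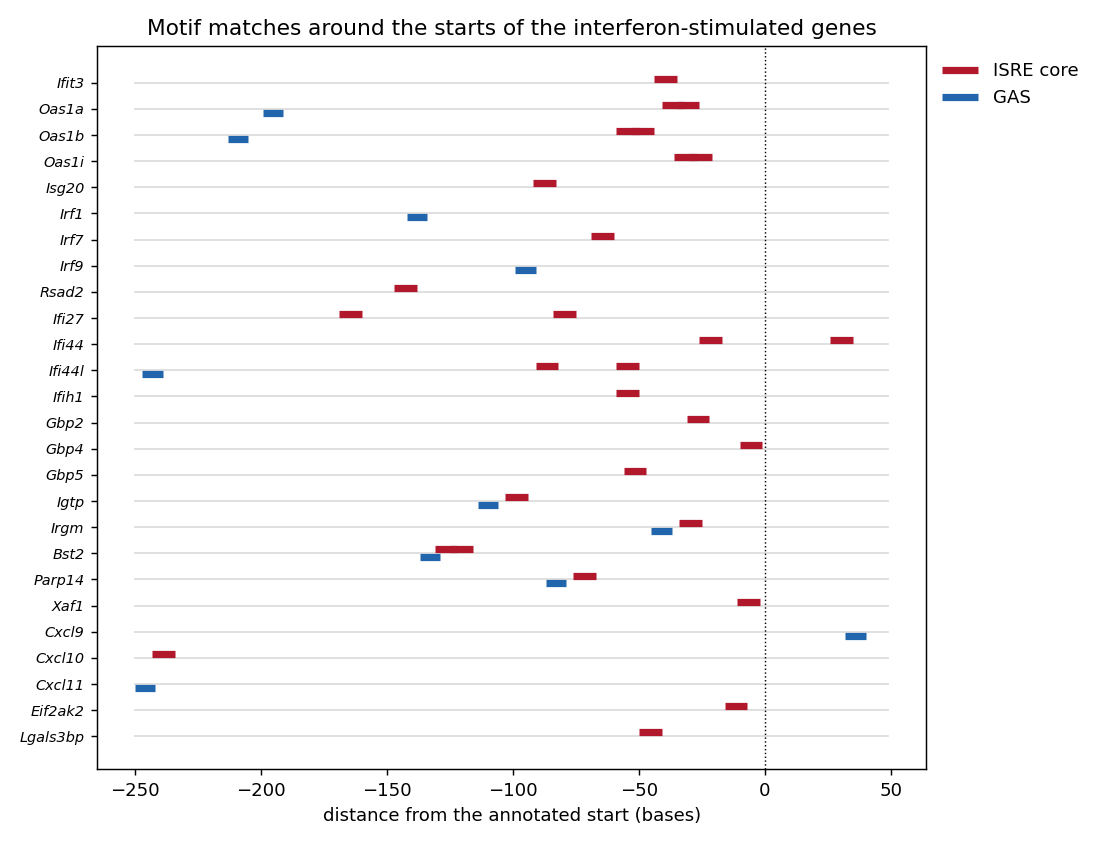
Positions of ISRE core (red) and GAS (blue) matches in the promoter windows, with distance from the annotated start in bases on the horizontal axis and 1 gene per row for the genes with a match. Most ISRE cores lie between the start and 200 bases before it, and those of Oas1a, Oas1b, Oas1i and Bst2 overlap in tandem.

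All values below are log2 signal after quantile normalization between the arrays, with the replicate 1 array given before the replicate 2 array of a group, and each difference is a log2 difference of group means with limma's standard error. Before normalization the arrays differed in brightness, with a 2% trimmed mean of 104.2 to 137.5 for replicate 2 and of 28.19 to 70.01 for replicate 1. The late estradiol replicate 1 array was the dimmest, and its ratio of 3′ to 5′ Gapdh signal was 2.70, against 1.26 to 1.65 on the other arrays. The same ratio for actin was 3.01 on that array, 3.06 on Ovx replicate 2, 2.75 on sham replicate 2 and 1.71 to 2.54 on the others. The defining heart muscle genes Myh6 and Tnnt2 were measured on all 8 arrays, at 12.41 to 12.76 and 12.92 to 13.08. No probe set of the 18625 tested, and so no interferon-stimulated gene, passed an adjusted p of 0.05 in any of the 6 comparisons between groups or in the F test over the 4 groups (limma, Benjamini-Hochberg adjustment over all probe sets). Before adjustment, 1.86% of all probe sets and 0 of the 35 genes had an F test p under 0.05, and the smallest among the 35 was 0.166, for Usp18 and Cxcl11 (limma). Everything that follows therefore describes levels and differences that did not pass the test.

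**Figure D2:**
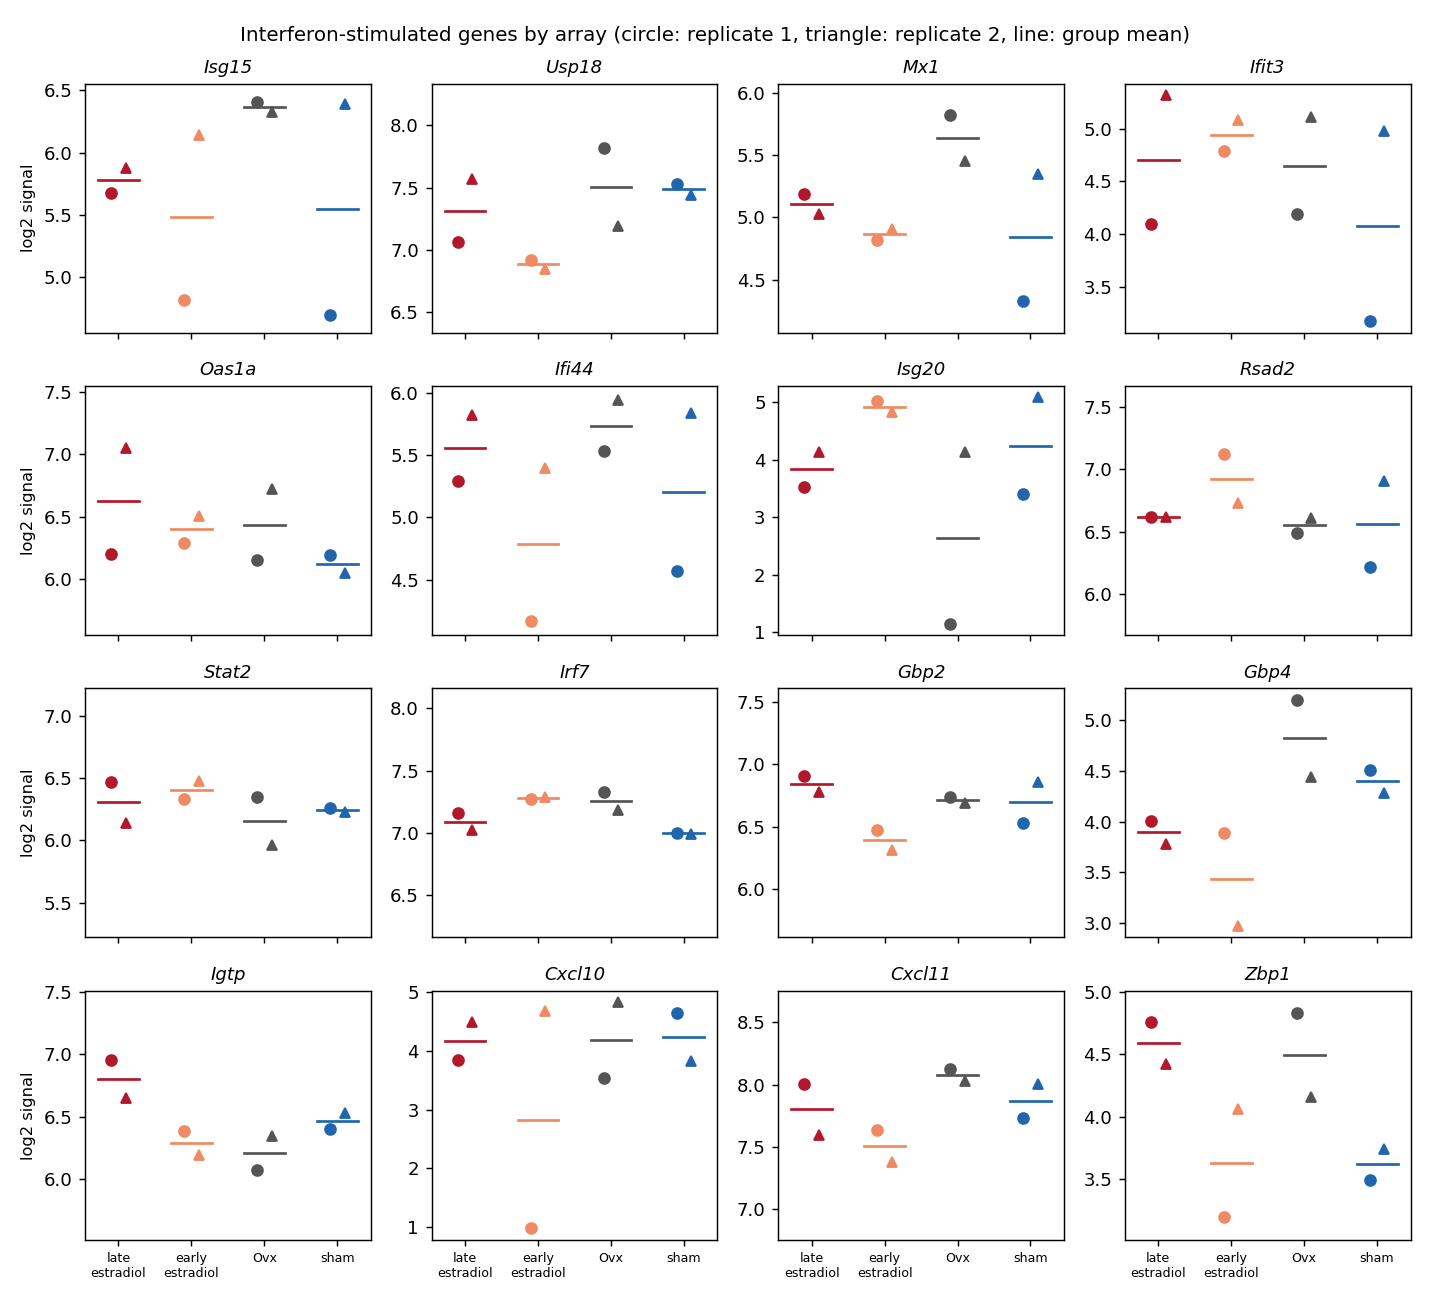
Log2 signal (vertical axes, each panel with its own range) of 16 interferon-stimulated genes on the late estradiol, early estradiol, Ovx and sham arrays, with circles for replicate 1, triangles for replicate 2 and lines for group means. Replicates of a group often lie as far apart as the group means, as for Isg15 in sham hearts (4.70 and 6.39), while Gbp2 and Usp18 lie lower on both early estradiol arrays than on both Ovx arrays.

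Early estradiol against Ovx asks what estradiol given from the time of ovariectomy does to these genes. On the quantile-normalized scale, 26 of the 35 genes had a lower mean in early estradiol than in Ovx hearts, where 47.1% of all probe sets were lower, but the count was 17 without between-array normalization and 16 with arrays shifted to a common median. These scalings also moved the median of all probe sets, which was 0.02, 0.18 and 0.20 in the same order, and relative to it 26, 25 and 25 of the 35 genes lay lower. The median difference of the 35 genes was -0.19, turning to 0.01 and 0.03 under the other scalings. It was -0.26 between the replicate 1 arrays and -0.16 between the replicate 2 arrays. Without the early estradiol replicate 1 array the median was -0.10 and 20 of 35 genes were lower. Both early estradiol arrays lay below both Ovx arrays for 14 genes (40% of the 35, 12.3% of all probe sets), and both lay above for 2 genes, Isg20 and Rsad2 (14.7% of all probe sets). The 14 were Mx1, Oasl, Isg15, Irf9, Usp18, Ifi27, Ifi44, Ifi44l, Gbp2, Gbp4, Irgm, Cxcl11, Zbp1 and Eif2ak2. Gbp4 and Zbp1, and likewise Isg20, had a group mean below the filter's cut of 3.69 in this comparison. Of the 14, all but Irgm had a lower mean under all 3 scalings, and Isg20 and Rsad2 had a higher mean under all 3. No count here comes with a test of the list, and 0 of 35 genes passed the test singly, while 1 gene and 1.71% of all probe sets had an unadjusted p under 0.05 (limma).

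**Figure D3:**
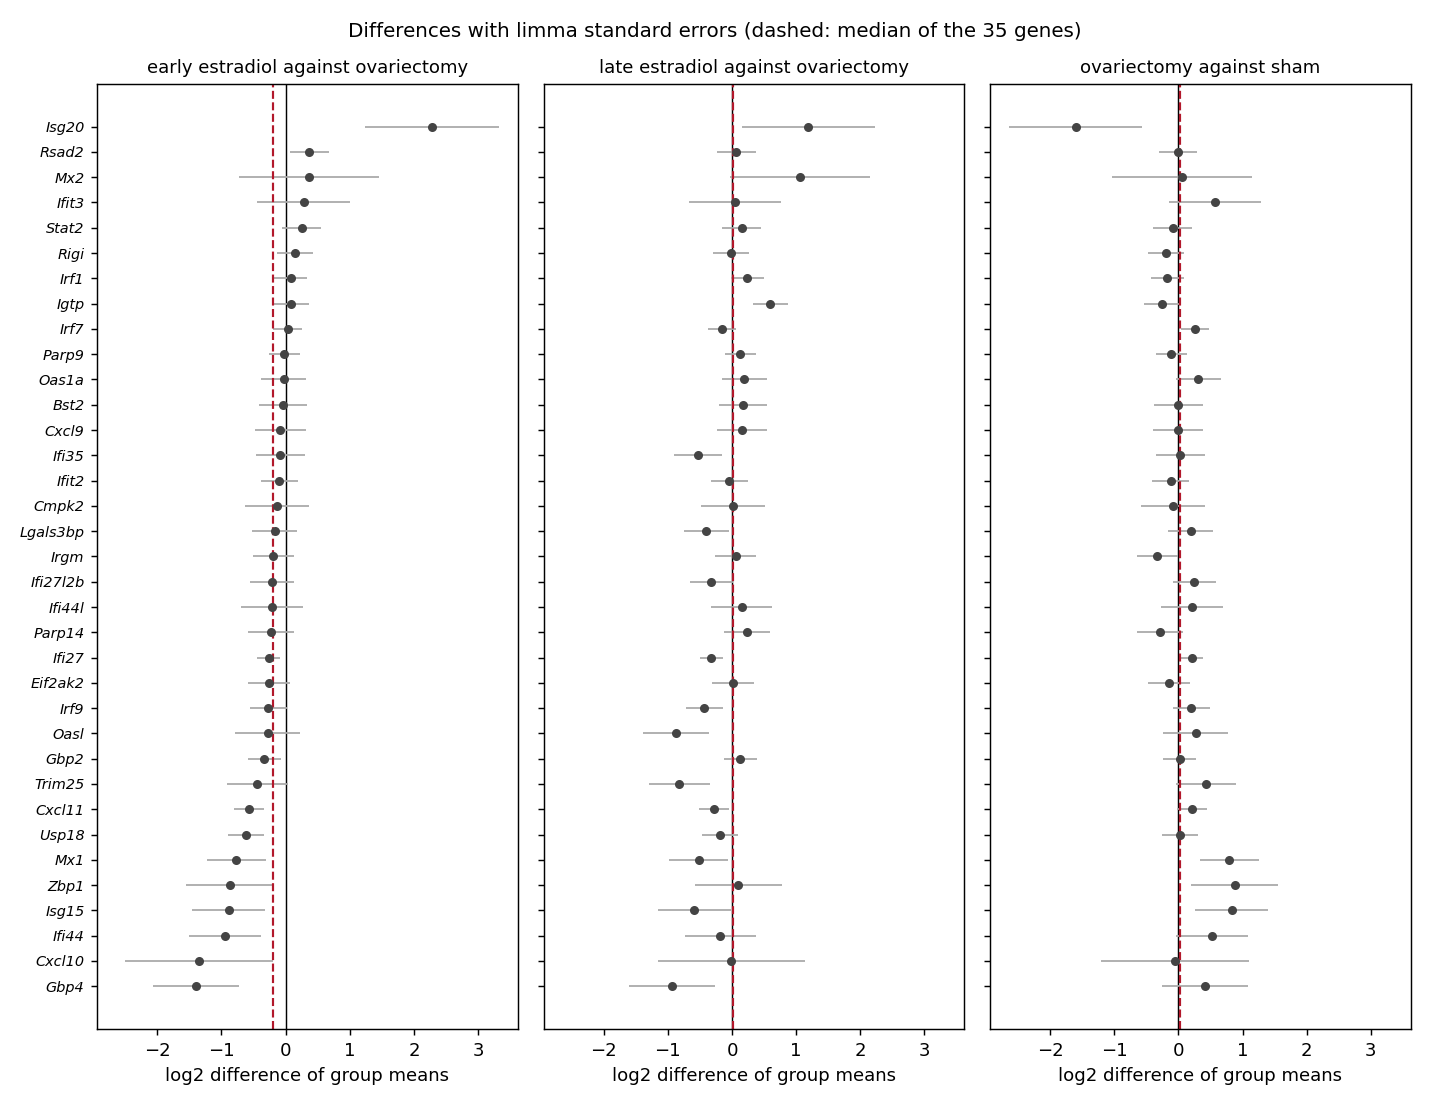
Log2 differences of group means (horizontal axes) for the 35 genes in early estradiol against Ovx, late estradiol against Ovx, and Ovx against sham, with points for the difference, bars for limma's standard error and a dashed line for the median. In early estradiol against Ovx the median is -0.19 (0.01 without between-array normalization and 0.03 with arrays shifted to a common median). In the other panels it is 0.02 and 0.03 (-0.26 and -0.17 without between-array normalization). Without between-array normalization the median of all probe sets is 0.18, -0.31 and -0.31 in the order of the panels. With the common median it is 0.20 in early estradiol against Ovx.

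The ISG15 system attaches a small ubiquitin-like protein to other proteins, and Usp18 removes it and also dampens interferon receptor signalling. Isg15, the modifier itself, was at 5.68 and 5.88 in late estradiol hearts, 4.82 and 6.14 in early estradiol hearts, 6.41 and 6.33 in Ovx hearts, and 4.70 and 6.39 in sham hearts. The Ovx arrays were close together, whereas the early estradiol and sham groups each held 1 low and 1 high array. Isg15 differed by -0.89 ± 0.57 in early estradiol against Ovx (unadjusted p = 0.152, adjusted p = 1, limma), and without the early estradiol replicate 1 array the difference was -0.23. Usp18 was at 7.06 and 7.57 in late estradiol hearts, 6.92 and 6.85 in early estradiol hearts, 7.82 and 7.19 in Ovx hearts, and 7.53 and 7.44 in sham hearts. Both early estradiol arrays lay below the other 6. Its difference was -0.62 ± 0.28 in early estradiol against Ovx (unadjusted p = 0.0517, limma) and -0.60 ± 0.28 in early estradiol against sham (unadjusted p = 0.0603), both with an adjusted p of 1. The difference from Ovx was -0.31 without the Ovx replicate 1 array.

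Among the 12 antiviral effectors, 8 had a lower mean in early estradiol than in Ovx hearts, or 4 under either other scaling. Their median difference was -0.07, turning to 0.15 without between-array normalization and 0.17 with arrays shifted to a common median. The median of all probe sets was 0.02, 0.18 and 0.20 in the same order, above that of the effectors each time. The shares of all probe sets that were lower were 47.1%, 31.4% and 29.4%. Mx1, a dynamin-like GTPase that blocks viral replication, was at 5.19 and 5.03 in late estradiol hearts, 4.82 and 4.91 in early estradiol hearts, 5.82 and 5.45 in Ovx hearts, and 4.33 and 5.35 in sham hearts. The Ovx arrays were the 2 highest of the 8. Mx1 differed by -0.77 ± 0.46 in early estradiol against Ovx, by -0.52 ± 0.46 in late estradiol against Ovx, and by 0.79 ± 0.46 in Ovx against sham, comparisons that share the Ovx arrays (adjusted p = 1, 0.945 and 1, limma). Without the low sham replicate 1 array the Ovx against sham difference was 0.29. Zbp1, a sensor of Z-form nucleic acid that can start cell death, was at 4.76 and 4.42 in late estradiol hearts, 3.19 and 4.06 in early estradiol hearts, 4.83 and 4.16 in Ovx hearts, and 3.49 and 3.74 in sham hearts. The late estradiol and Ovx arrays all lay above the early estradiol and sham arrays. Zbp1 was dim, with early estradiol and sham means of 3.63 and 3.61, below the filter's cut of 3.69. It passed the filter on its mean over all arrays, through the groups where it was high. The Zbp1 difference was 0.98 ± 0.68 in late estradiol against sham, 0.88 ± 0.68 in Ovx against sham and -0.87 ± 0.68 in early estradiol against Ovx (adjusted p = 0.997, 1 and 1, limma), and the last was -0.43 without the early estradiol replicate 1 array.

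Isg20, an exonuclease that degrades viral RNA, had a difference of the opposite sign to the list's median. It was at 3.53 and 4.14 in late estradiol hearts, 5.02 and 4.83 in early estradiol hearts, 1.15 and 4.14 in Ovx hearts, and 3.40 and 5.09 in sham hearts. The Ovx replicate 1 array was far below the other 7, at a deposited signal of 1.91, and the Ovx mean of 2.64 lay below the filter's cut of 3.69. The difference in early estradiol against Ovx was 2.28 ± 1.04 (unadjusted p = 0.053, adjusted p = 1, limma), and without the Ovx replicate 1 array it was 0.80. In Ovx against sham it was -1.60 ± 1.04, and without that array it was -0.11. Rsad2 (viperin, which makes a chain-terminating nucleotide) was at 6.62 and 6.62 in late estradiol hearts, 7.12 and 6.73 in early estradiol hearts, 6.49 and 6.61 in Ovx hearts, and 6.22 and 6.91 in sham hearts, and its difference was 0.37 ± 0.30 in early estradiol against Ovx (adjusted p = 1, limma).

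The other effectors differed by less than their standard error between early estradiol and Ovx hearts. Ifit3, which works with other IFIT proteins to bind foreign RNA, was at 4.09 and 5.32 in late estradiol hearts, 4.79 and 5.08 in early estradiol hearts, 4.19 and 5.11 in Ovx hearts, and 3.17 and 4.98 in sham hearts. The replicate 2 array was the higher in every group. Oas1a, which makes the 2-5A messenger that activates RNase L, was at 6.20 and 7.05 in late estradiol hearts, 6.29 and 6.51 in early estradiol hearts, 6.15 and 6.72 in Ovx hearts, and 6.19 and 6.05 in sham hearts. Eif2ak2 (the kinase PKR, which stops translation) was at 5.64 and 5.68 in late estradiol hearts, 5.28 and 5.49 in early estradiol hearts, 5.54 and 5.75 in Ovx hearts, and 5.72 and 5.88 in sham hearts. Eif2ak2 was lowest on the early estradiol arrays, but the early estradiol against Ovx difference was -0.26 ± 0.33. The largest Oas1a difference was 0.50 ± 0.35 in late estradiol against sham (adjusted p = 0.997, limma). Without between-array normalization it turned to -0.07, where the median of all probe sets was -0.62.

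The GTPases of this set act in defence against pathogens inside vacuoles and in the cytosol. Of the 4, 3 had a lower mean in early estradiol than in Ovx hearts. With arrays shifted to a common median 2 of the 4 were lower, where 29.4% of all probe sets were. Gbp4 had the lowest difference of the 35 genes. It was at 4.01 and 3.78 in late estradiol hearts, 3.89 and 2.97 in early estradiol hearts, 5.20 and 4.44 in Ovx hearts, and 4.51 and 4.28 in sham hearts. All 4 arrays of estradiol-treated rats lay below all 4 arrays of untreated rats. Gbp4 was dim, and its early estradiol mean of 3.43 lay below the filter's cut of 3.69, which the gene passed on its mean over all arrays. It differed by -1.39 ± 0.67 in early estradiol against Ovx (unadjusted p = 0.0641, adjusted p = 1, limma) and by -0.93 ± 0.67 in late estradiol against Ovx (adjusted p = 0.943). Gbp2 was at 6.91 and 6.78 in late estradiol hearts, 6.47 and 6.31 in early estradiol hearts, 6.74 and 6.69 in Ovx hearts, and 6.53 and 6.86 in sham hearts, so both early estradiol arrays were the lowest of the 8. Its difference was -0.33 ± 0.26 in early estradiol against Ovx (adjusted p = 1, limma).

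Igtp (IRGM3 in mouse), an immunity-related GTPase, had its largest difference in the late estradiol group. It was at 6.95 and 6.65 in late estradiol hearts, 6.38 and 6.19 in early estradiol hearts, 6.07 and 6.34 in Ovx hearts, and 6.40 and 6.53 in sham hearts. Both late estradiol arrays lay above the other 6. The difference was 0.60 ± 0.28 in late estradiol against Ovx (unadjusted p = 0.0565, adjusted p = 0.943, limma) and 0.52 ± 0.28 in late against early estradiol (adjusted p = 0.987). Irgm, of the same family, was at 6.23 and 6.29 in late estradiol hearts, 5.92 and 6.10 in early estradiol hearts, 6.23 and 6.17 in Ovx hearts, and 6.87 and 6.17 in sham hearts. Its largest difference was -0.51 ± 0.32, in early estradiol against sham (unadjusted p = 0.137, adjusted p = 1, limma), and it was -0.16 without the sham replicate 1 array.

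The chemokines Cxcl9, Cxcl10 and Cxcl11 all bind the receptor CXCR3 on T cells and natural killer cells. Cxcl11 was at 8.01 and 7.60 in late estradiol hearts, 7.64 and 7.38 in early estradiol hearts, 8.13 and 8.03 in Ovx hearts, and 7.73 and 8.01 in sham hearts. The Ovx arrays were the 2 highest, and both early estradiol arrays lay below both Ovx and both sham arrays. The early estradiol against Ovx difference was -0.57 ± 0.23, with a 95% interval of -1.09 to -0.06 before adjustment, and it gave the smallest unadjusted p of the list (0.033, adjusted p = 1, limma). Cxcl10 was at 3.85 and 4.49 in late estradiol hearts, 0.98 and 4.68 in early estradiol hearts, 3.54 and 4.83 in Ovx hearts, and 4.65 and 3.82 in sham hearts. The early estradiol mean of 2.83 lay below the filter's cut of 3.69. A single array, early estradiol replicate 1, was far below the rest. The early estradiol against Ovx difference of -1.35 ± 1.15 turned to 0.50 without it. Cxcl9 differed by -0.08 ± 0.39 in the same comparison, and by 0.09 without between-array normalization and 0.11 with arrays shifted to a common median. The medians of all probe sets under these scalings were 0.18 and 0.20.

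None of the 6 genes grouped under transcription (Irf1, Irf7, Irf9, Stat2, Parp9 and Parp14) had a difference past the test. Stat2, part of the complex that binds the ISRE, was at 6.47 and 6.14 in late estradiol hearts, 6.33 and 6.48 in early estradiol hearts, 6.35 and 5.96 in Ovx hearts, and 6.26 and 6.23 in sham hearts. Irf7, which drives the type I interferon genes, was at 7.16 and 7.02 in late estradiol hearts, 7.27 and 7.29 in early estradiol hearts, 7.33 and 7.18 in Ovx hearts, and 7.0 and 6.99 in sham hearts. All 6 arrays of ovariectomized rats lay above both sham arrays for Irf7. The difference was 0.26 ± 0.22 in Ovx against sham (adjusted p = 1, limma). Without between-array normalization it turned to -0.08, where the median of all probe sets was -0.31. For early estradiol against Ovx the 95% intervals were -0.47 to 0.53 for Irf7, -0.40 to 0.91 for Stat2, -0.50 to 0.66 for Irf1, -0.55 to 0.51 for Parp9, -0.91 to 0.37 for Irf9 and -1.04 to 0.57 for Parp14. A second, dimmer Stat2 probe set past the filter differed by 1.36 in late estradiol against Ovx and by 1.02 in late against early estradiol, where the brighter one differed by 0.15 and -0.10. Irf9, the DNA-binding partner of STAT2, was at 5.84 and 6.10 in late estradiol hearts, 6.13 and 6.13 in early estradiol hearts, 6.51 and 6.29 in Ovx hearts, and 6.17 and 6.23 in sham hearts. The Ovx arrays were the 2 highest for Irf9, and the late estradiol against Ovx difference was -0.43 ± 0.29 (adjusted p = 0.943, limma). A second, dimmer Irf9 probe set past the filter differed by -0.07 in that comparison. In Ovx against sham it differed by -0.06, where the brighter one differed by 0.20.

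All 6 of the remaining induced genes had a lower mean in early estradiol than in Ovx hearts, with differences of -0.95 to -0.08, and all 6 had a higher mean in Ovx than in sham hearts, with differences of 0.03 to 0.53, in comparisons that share the Ovx arrays. These counts moved with the scaling, as did the median of all probe sets. With arrays shifted to a common median, 3 of the 6 were lower in early estradiol against Ovx (Ifi27, Ifi44 and Ifi44l). In Ovx against sham 3 of the 6 were lower. Without between-array normalization these counts were 3 of 6 and 5 of 6. In early estradiol against Ovx the highest of the 6 differences was 0.02 without between-array normalization and 0.05 with the common median. The medians of all probe sets were higher, at 0.18 and 0.20. In Ovx against sham the lowest of the 6 was -0.18 and -0.04, above medians of all probe sets of -0.31 and -0.17. Ifi44 was at 5.29 and 5.82 in late estradiol hearts, 4.17 and 5.40 in early estradiol hearts, 5.53 and 5.94 in Ovx hearts, and 4.57 and 5.84 in sham hearts. The low arrays were early estradiol replicate 1 and sham replicate 1, and the early estradiol against Ovx difference was -0.95 ± 0.56 (adjusted p = 1, limma), or -0.34 without the early estradiol array. Ifi27 was at 9.48 and 9.43 in late estradiol hearts, 9.39 and 9.66 in early estradiol hearts, 9.69 and 9.87 in Ovx hearts, and 9.45 and 9.68 in sham hearts. Its largest difference was -0.32 ± 0.18 in late estradiol against Ovx (unadjusted p = 0.096, adjusted p = 0.943, limma). Ifi35 was at 4.87 and 5.54 in late estradiol hearts, 5.70 and 5.59 in early estradiol hearts, 5.55 and 5.91 in Ovx hearts, and 5.84 and 5.56 in sham hearts, and both late estradiol arrays were the lowest. Among the sensors, Trim25, which activates RIG-I, was at 5.84 and 6.09 in late estradiol hearts, 6.48 and 6.20 in early estradiol hearts, 5.94 and 7.63 in Ovx hearts, and 6.5 and 6.21 in sham hearts. The Ovx replicate 2 array stood alone, and the late estradiol against Ovx difference of -0.82 ± 0.47 was 0.03 without it.

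Late estradiol against Ovx asks the same of estradiol started after a delay. Here 17 of the 35 genes had a lower mean in late estradiol than in Ovx hearts (48.8% of all probe sets), and the median difference was 0.02. Without between-array normalization 32 of 35 (76.9% of all probe sets) were lower, and relative to the median of all probe sets 16 of 35 were lower, against 17 of 35 on the quantile-normalized scale. Both late estradiol arrays lay below both Ovx arrays for 9 genes (13.4% of all probe sets) and above them for 5 (15.7% of all probe sets). The 9 were Mx1, Oasl, Isg15, Irf7, Irf9, Ifi27, Ifi35, Gbp4 and Cxcl11, and the 5 were Rsad2, Gbp2, Igtp, Irgm and Parp9. The unadjusted p was under 0.05 for 0 of the 35 genes (4.36% of all probe sets, limma). Oasl, a catalytically inactive relative of the OAS enzymes in humans, was at 3.80 and 5.09 in late estradiol hearts, 4.99 and 5.08 in early estradiol hearts, 5.17 and 5.47 in Ovx hearts, and 5.15 and 4.95 in sham hearts. Its difference of -0.87 ± 0.51 was -0.24 without the low late estradiol replicate 1 array (adjusted p = 0.943 with all arrays, limma).

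Late against early estradiol compares the times of starting treatment. With the same pellet placed 9 weeks apart, the start cannot be told apart from the length of exposure or the time since ovariectomy. In this comparison 22 of the 35 genes had a higher mean in late estradiol hearts (49.3% of all probe sets), but 30 of 35 (83.4% of all probe sets) were lower without between-array normalization and 21 of 35 (71.4% of all probe sets) with arrays shifted to a common median. Relative to the median of all probe sets, 13 of the 35 genes were lower under each of the 3 scalings. The median difference was 0.21, and it was -0.30 and -0.08 under those scalings, where the median of all probe sets was -0.48 and -0.25. Without the early estradiol replicate 1 array the list's median was -0.08 and that of all probe sets -0.04. The arrays did not overlap for 11 genes that were higher in late estradiol hearts (15.5% of all probe sets) and 7 that were lower (16.3% of all probe sets). All 4 GTPases and all 3 chemokines had a higher mean in late estradiol hearts, although without between-array normalization 3 of the 4 GTPases (Gbp2, Igtp and Irgm) and 2 of the 3 chemokines (Cxcl9 and Cxcl11) were lower. Their lowest differences were then -0.24 and -0.30, above the median of all probe sets of -0.48. With arrays shifted to a common median Irgm and Cxcl11 were lower, at -0.02 and -0.08, also above the median of all probe sets of -0.25. The unadjusted p was under 0.05 for 0 of the 35 genes (3.87% of all probe sets, limma). Gbp2 differed by 0.46 ± 0.26 (unadjusted p = 0.109, limma), Usp18 by 0.43 ± 0.28 (unadjusted p = 0.157), and Cxcl10 by 1.34 ± 1.15 (unadjusted p = 0.27), each with an adjusted p of 0.987. Usp18 turned to -0.13 without between-array normalization, and Cxcl10 to -0.51 without the early estradiol replicate 1 array.

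Ovx against sham asks what loss of the ovaries alone does. The mean was higher in Ovx hearts for 20 of the 35 genes (46.7% of all probe sets) with a median difference of 0.03, but 26 of 35 (78.2% of all probe sets) were lower without between-array normalization. Relative to the median of all probe sets, 12 of 35 genes were lower on the quantile-normalized scale and 16 of 35 under each of the other scalings. Both Ovx arrays lay above both sham arrays for 7 genes, Mx1, Oasl, Irf7, Irf9, Ifi27, Cxcl11 and Zbp1 (11% of all probe sets), and below them for Irf1 and Igtp (14.1% of all probe sets). No gene of the 35 had an unadjusted p under 0.05, where 1.47% of all probe sets did (limma). Isg15 differed by 0.83 ± 0.57 (adjusted p = 1, limma), and by -0.02 without the low sham replicate 1 array. In the comparisons of treated with intact animals, the median difference was -0.05 in late estradiol against sham, with 18 of 35 genes lower (51.9% of all probe sets) and 27 of 35 lower without the sham replicate 1 array, and -0.05 in early estradiol against sham, with 24 of 35 lower (50.1% of all probe sets) and 13 of 35 lower without the early estradiol replicate 1 array.

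**Figure D4:**
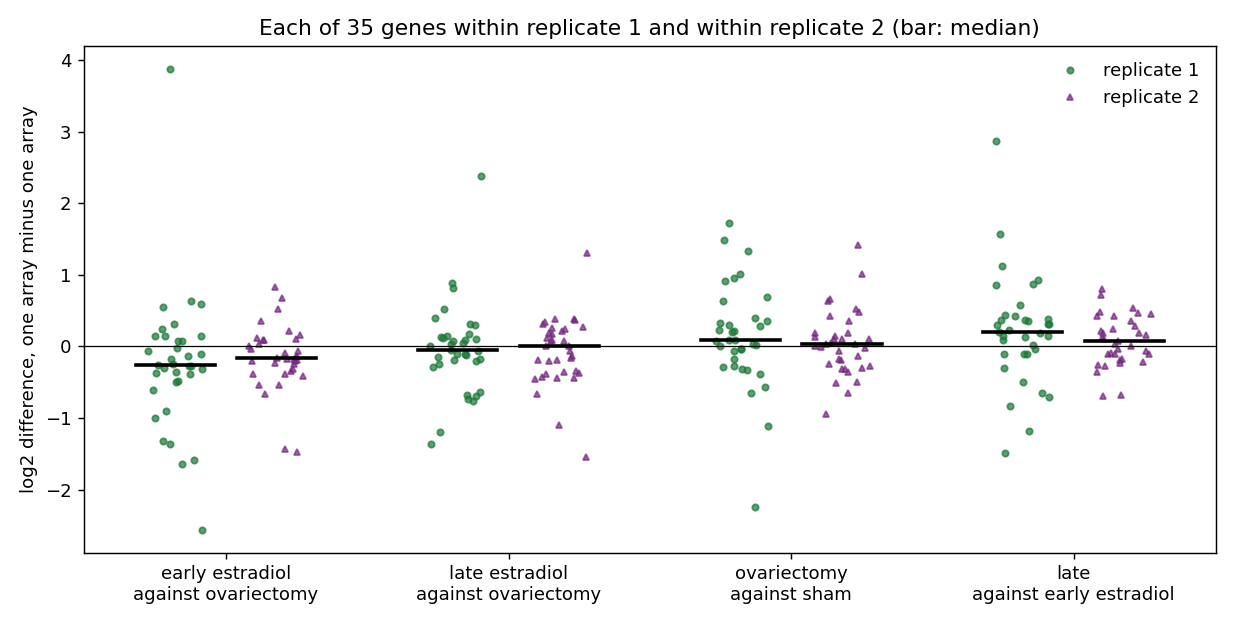
Log2 difference between 2 single arrays of the same replicate number (vertical axis) for each of the 35 genes in 4 comparisons, with circles for replicate 1, triangles for replicate 2 and bars for medians, on the quantile-normalized scale. In early estradiol against Ovx both medians lie below 0 (-0.26 and -0.16), and replicate 1 spreads wider than replicate 2. Without between-array normalization the median of the list turns to 0.01, where that of all probe sets is 0.18.

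Several genes differed between the replicate numbers in every group, and the part of the number in the group differences was not tested beyond the fit with the number as a block. Of the 35 genes, 9 were higher on the replicate 2 array in all 4 groups (15% of all probe sets) and 3 were lower (13.3% of all probe sets). The 9 were Ifit2, Ifit3, Ifi27l2b, Ifi44, Ifi44l, Rigi, Bst2, Cmpk2 and Eif2ak2, and the 3 were Mx2, Gbp4 and Parp14. In limma's test of the number, 0 of the 35 genes passed, against 0.451% of all probe sets higher and 0.881% lower on replicate 2 arrays. Ifi27l2b differed by 0.62 ± 0.13, replicate 2 minus replicate 1 (adjusted p = 0.0542, limma with a replicate term). Mx2, a nuclear-pore antiviral GTPase in humans, was at 5.60 and 3.86 in late estradiol hearts, 4.66 and 3.38 in early estradiol hearts, 4.78 and 2.55 in Ovx hearts, and 4.77 and 2.44 in sham hearts. Its replicate 2 minus replicate 1 difference was -1.90 ± 0.46 (adjusted p = 0.0708, same test), larger than any difference between groups for this probe set. The Ovx and sham means of this probe set, 3.67 and 3.61, lay below the filter's cut of 3.69. A second, dimmer Mx2 probe set past the filter differed by 1.82 in Ovx against sham and by -0.90 in early estradiol against Ovx. The one used differed by 0.06 and 0.36. Bst2 (tetherin, which holds budding virus at the cell surface) differed by 0.66 ± 0.17, replicate 2 minus replicate 1 (adjusted p = 0.0778, limma with a replicate term). Over the 8 arrays, the median deviation of the 35 genes from their own means was -0.03 and 0.09 in late estradiol, -0.19 and 0.07 in early estradiol, -0.01 and 0.12 in Ovx, and -0.10 and 0.14 in sham hearts, so the replicate 2 array was the higher in each group.

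**Figure D5:**
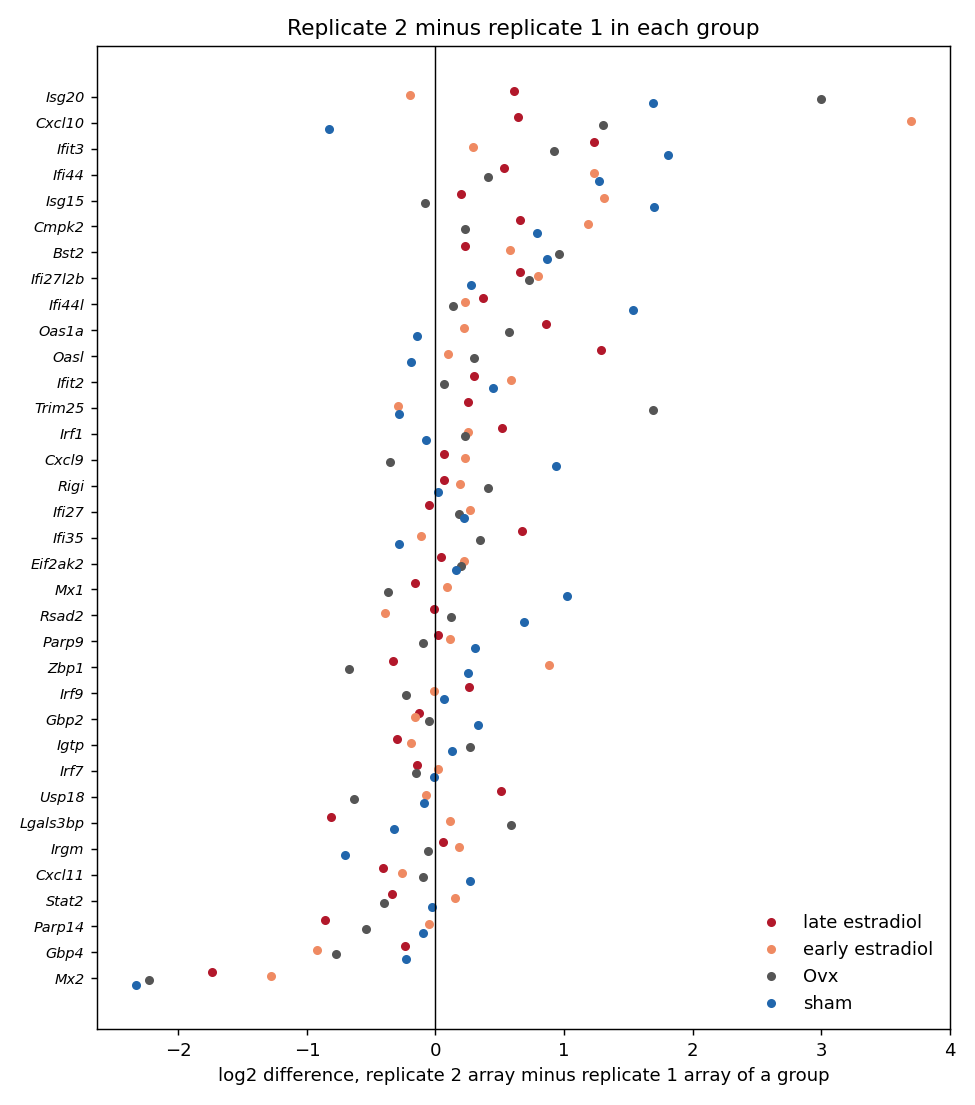
Log2 difference of the replicate 2 array minus the replicate 1 array (horizontal axis) of the late estradiol, early estradiol, Ovx and sham groups (points) for each of the 35 genes. Mx2 lies between -1.28 and -2.33 in all 4 groups, Ifi27l2b between 0.28 and 0.80, and Isg20 and Cxcl10 each have 1 group near or above 3.

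With the replicate number as a block, no interferon-stimulated gene passed either, and adjusted p values in early estradiol against Ovx were 0.998 for all 35 genes (limma). At an unadjusted p under 0.05 the block gave 5 genes in that comparison, Isg20, Usp18, Ifi44, Gbp4 and Cxcl11, where 3.68% of all probe sets reached it. In late estradiol against Ovx it gave Igtp, where 8.03% of all probe sets reached it and 1 probe set (0.00537%), of none of the 35 genes, passed after adjustment. In late against early estradiol and in Ovx against sham it gave 0 of the 35 genes, where 7.79% and 3.08% of all probe sets reached it. Agreement between probe sets was limited among the 8 genes with more than 1 probe set past the filter. Of these, 6 had probe sets of opposite sign in early estradiol against Ovx (Cmpk2, Cxcl9, Ifit2, Igtp, Mx2 and Parp14). In late estradiol against Ovx there were 2 such genes (Mx2 and Parp14). There were 3 in Ovx against sham (Cxcl9, Irf9 and Parp14) and 4 in late against early estradiol (Ifit2, Irf9, Parp14 and Stat2).

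The genes below the filter scattered widely. Ifih1 (MDA5, a sensor of long double-stranded RNA) was at 1.25 and 3.58 in late estradiol hearts, 1.35 and 4.09 in early estradiol hearts, 1.63 and 1.13 in Ovx hearts, and 0.08 and 3.66 in sham hearts. Replicates within a group differed by more than 2 log2 units in 3 of the 4 groups. The 4 other dim genes ranged from 0.19 to 3.94 for Ifit1, from 0.97 to 4.48 for Oas1b, from 2.11 to 5.67 for Dhx58 and from -1.57 to 4.30 for Herc6 over the 8 arrays.

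Genes with and without an ISRE core were set side by side, with no test. In early estradiol against Ovx, 12 of the 17 genes with a core and 9 of the 11 with a window but no core had a lower mean, with median differences of -0.19 and -0.13. In late estradiol against Ovx the counts were 6 of 17 and 6 of 11, with medians of 0.06 and -0.28. Genes such as Gbp4 and Isg20, both with a core printed above, had differences of opposite sign.

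Upstream genes of the pathway, a list of 30 ligands, receptors, kinases and adaptors, had 25 genes on the array and 20 past the filter, of which 0 passed the test in any comparison (limma). The interferon genes Ifnb1 and Ifng lay below the filter. The list's median difference was -0.09 in early estradiol against Ovx, with 8 of 20 genes higher (52.9% of all probe sets), on the quantile-normalized scale. The type I receptor chain Ifnar1 was at 6.69 and 5.42 in late estradiol hearts, 5.77 and 5.04 in early estradiol hearts, 6.74 and 4.95 in Ovx hearts, and 6.04 and 4.79 in sham hearts, and the replicate 1 array was the higher in every group. The type II receptor chain Ifngr1 was at 8.5 and 8.33 in late estradiol hearts, 8.45 and 8.62 in early estradiol hearts, 8.34 and 8.54 in Ovx hearts, and 8.40 and 8.35 in sham hearts. Its early estradiol against Ovx difference was 0.10 ± 0.19 (adjusted p = 1, limma).

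Markers of immune cells, which also express interferon-stimulated genes, were set beside these values. The summed linear signal of 14 macrophage markers (14 of 14 past the filter) was 801 and 1410 in late estradiol hearts, 1920 and 1620 in early estradiol hearts, 1120 and 2770 in Ovx hearts, and 1110 and 1270 in sham hearts. The same sum over the 40 interferon-stimulated genes with a probe set was 3630 and 3870 in late estradiol hearts, 3280 and 3880 in early estradiol hearts, 3870 and 4410 in Ovx hearts, and 3490 and 4130 in sham hearts. Ovx replicate 2 had the highest sum for both. In early estradiol against Ovx the macrophage markers had a median difference of 0.08, with 8 of 14 higher (52.9% of all probe sets). In late against early estradiol their median was -0.74, with 0 of 14 higher (49.3% of all probe sets). These counts are on the quantile-normalized scale. Between the replicate 2 arrays alone, Adgre1, Cd163, Tyrobp and Ptprc were higher in late than in early estradiol hearts, and the other macrophage markers were lower. The 11 T and natural killer cell markers, 8 of them past the filter and Cd3d, Cd8a and Gzmb below it, summed to 200 and 256 in late estradiol hearts, 194 and 284 in early estradiol hearts, 224 and 259 in Ovx hearts, and 212 and 271 in sham hearts. Of 6 neutrophil markers, 4 had a probe set and 2 passed the filter, S100a8 and S100a9, while Csf3r and Camp lay below it. The 4 summed to 84.2 and 65.1 in late estradiol hearts, 395 and 109 in early estradiol hearts, 44.9 and 83 in Ovx hearts, and 63.9 and 39.2 in sham hearts. Both early estradiol arrays had the highest sums, and S100a9, at 8.19 and 6.03 there, was the brightest of the 4. The median difference of S100a8 and S100a9 was 2.15 in early estradiol against Ovx and -1.67 in late against early estradiol. Csf3r and Camp went the other way in early estradiol against Ovx, with means of 2.67 against 3.92 and 0.93 against 1.78. Of 6 B and plasma cell markers, 1 passed the filter, and the 4 with a probe set summed to 34 to 71.3 over the 8 arrays. The part of cell makeup in the differences was not tested.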

How the data were processed

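The authors deposited a linear signal intensity for each probe set on each array. Per the submitters' processing notes the tool was MAS5 (scaling target: not given in the sources used here). Intensities were taken to log2 and quantile-normalized between the 8 arrays, because the deposited arrays differed in scale. After 57 control probe sets were left out, 18625 of 31042 probe sets passed a filter on dim signal (40th percentile of the mean log2 values, a cut of 3.69). limma 3.58.1 in R 4.3.3 fitted the means of the 4 groups, using all arrays and an intensity-dependent prior (residual df 4), with Benjamini-Hochberg adjustment over all 18625. The code was run on simulated data with independent noise, large added differences and no effect of the replicate number. That setting is simpler than these arrays, so the run does not show how the test performs on them. Gene symbols came from the platform annotation and the RefSeq table of GRCr8 (20826 probe sets with 1 symbol, 436 with several and 9780 with none).

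The replicate 2 minus replicate 1 difference within a group correlated between every pair of groups (r 0.277 to 0.331, across probe sets, which are not independent). The number was therefore taken as a pairing and fitted as a block in an alternative. Other alternatives changed the scaling, the filter, the value added before the log, the prior and the probe set choice, and left out each array in turn. Values by array are given for the 3 genes of smallest p in each comparison and for 12 representatives of the pathway. Gbp4, Ifi44, Oasl, Irf9 and Mx2, the Zbp1 differences in early estradiol against Ovx and Ovx against sham, and the replicate number test, were chosen after their values were seen. The members and lists were chosen with earlier results of these data known.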

Additional observations from a re-analysis of the deposited data

How the results depend on the processing

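None of the 35 genes passed in any comparison under any alternative run, the replicate block included. The smallest adjusted p of any named difference was 0.263 (Oasl, late estradiol against Ovx, without late estradiol replicate 2, limma), and 28 of the 39 named differences kept their direction in every alternative. Without between-array normalization the numbers of genes lower were 17 in early estradiol against Ovx, 30 in late against early estradiol, 32 in late estradiol against Ovx, 32 in late estradiol against sham and 26 in Ovx against sham. The shares of all probe sets that were lower were 31.4%, 83.4%, 76.9%, 88.4% and 78.2% in the same order. The medians of the list, in that order and with -0.20 for early estradiol against sham added last, were 0.01, -0.30, -0.26, -0.63, -0.17 and -0.20. The directions of Gbp2 (-0.08), Igtp (-0.02) and Usp18 (-0.13) in late against early estradiol, Irf7 (-0.08) in Ovx against sham and Oas1a (-0.07) in late estradiol against sham turned under that setting. The median of all probe sets under it was -0.31 in Ovx against sham, 0.18 in early estradiol against Ovx, -0.31 in late estradiol against Ovx, -0.48 in late against early estradiol and -0.62 in late estradiol against sham, against -0.03 to 0.02 with quantile normalization. Relative to that median, the list's median was -0.17 in early estradiol against Ovx and 0.17 in late against early estradiol, against -0.21 and 0.21 with quantile normalization. With arrays shifted to a common median, 16 genes were lower in early estradiol against Ovx and 21 in late against early estradiol. The list's medians were 0.03, -0.08 and, in late estradiol against sham, -0.24. Those of all probe sets were 0.20, -0.25 and -0.23 in the same order.

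One probe set, none of the 35 genes, passed in late estradiol against Ovx with no filter, with the filter at the 60th percentile, with 32 added before the log, with probe sets averaged per gene and with the replicate block (1 in each). Leaving out 1 array in turn gave 0 to 65 probe sets in late estradiol against Ovx, 0 to 100 in late against early estradiol and 0 to 86 in late estradiol against sham, all highest without late estradiol replicate 2. It gave 0 to 3 in Ovx against sham and 0 to 1 in the F test. The list's median then ran from -0.24 to 0.07 in early estradiol against sham (13 to 27 genes lower), from -0.08 to 0.28 in late against early estradiol, from -0.23 to 0.07 in late estradiol against sham and from -0.08 to 0.23 in Ovx against sham. It ran from -0.29 to -0.10 in early estradiol against Ovx. Without single arrays, Cxcl10 ran from -3.16 to 0.50 in early estradiol against Ovx, from -3.21 to 0.45 in early estradiol against sham and from -0.51 to 3.15 in late against early estradiol, turning without early estradiol replicate 1. Ifit3 ran from -0.05 to 1.74 in early estradiol against sham and Isg15 from -0.02 to 1.63 in Ovx against sham, turning without sham replicate 1. Trim25 ran from -1.69 to 0.03 in late estradiol against Ovx, turning without Ovx replicate 2. The causes were not tested, and 2 arrays a group limit the precision of every value.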
